A study of Mus musculus with 300 samples.

Results

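Cd74, Sirpa, Xcr1 and Zbtb46 were followed in single cells of the E15.5 embryonic mouse thymus. The rule named these 4 genes outright, of 13737 features in the deposited matrix, and all 4 had a row and were detected in at least 10% of cells. The labels describe the cells as early thymic progenitors (ETPs), the first thymus-settling precursors of T cells, sorted singly into plates and sequenced in 2 pools after oligo-dT-primed reverse transcription and PCR amplification. All cells came from the 5x polychromILC strain, which carries reporter alleles at genes of T and innate lymphoid development, and the labels name no treatment and no second genotype. Of 300 labelled cells, 261 had values (67 from mouse id 1A, 69 from 1B, 64 from 2A and 61 from 2B), and 39 were not analysed here. The sorting gate, and whether a mouse id is 1 embryo or a pool, were not found in the sources used.

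Conventional dendritic cells take up antigen and present its peptides to T cells on MHC class II. In the thymus they present self antigens to developing T cells, while plasmacytoid dendritic cells, marked in mice by Siglech, are known for producing type I interferon. Zbtb46 encodes a transcription factor of committed conventional dendritic cells. Xcr1 encodes the receptor for the chemokine Xcl1 and marks the cDC1 subset. Sirpa encodes an inhibitory receptor that binds Cd47, marks the cDC2 subset among conventional dendritic cells, and is also made by macrophages and other myeloid cells. Cd74 encodes the invariant chain, which chaperones MHC class II in every cell type that presents on it, B cells and thymic epithelium included.

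Values are the authors' deposited log2 expression values, and a cell is called high for a gene at a log2 value of at least 5. A gene was counted as detected in a cell when its value lay above the repeated lowest value of that gene, taken as the level at no reads. The median cell had 7782 detected genes (5073 to 10337). Read depth is not in the matrix, so that count stands in for it. Kit, the stem cell factor receptor of early progenitors, was high in 207 of 261 cells, and 26 cells were Siglech-high (13, 3, 6 and 4 for mice 1A, 1B, 2A, 2B). The Siglech-high cells had fewer detected genes, with a median of 6445 (5175 to 8091) against 7849 (5073 to 10337) in the other 235 cells. The matrix falls into 4 sets of cells that share exact values, and these cross the mouse labels: mice 2A and 2B share 2 of the sets, so they are not necessarily independent, and p-values measure the spread between 4 labelled mice that may share a source. The cells that came first in each set, ordered by plate and then by well number, stood apart. The first 8 cells with values of each set are called its first 8 wells here. These 32 cells held 22 of the 26 Il2rb-high cells, against 10 of the 235 other cells.

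Sirpa and Cd74 were widespread, whereas Xcr1 and Zbtb46 were rare. Sirpa was detected in 55 of 67 cells of mouse 1A, 57 of 69 of 1B, 55 of 64 of 2A and 48 of 61 of 2B, a mean of 82.3 ± 2.97% (SD, n = 4 mice). Cd74 was detected in 41, 30, 46 and 40 cells of the same mice, a mean of 60.5 ± 12.2%, lowest in mouse 1B with 43.5% (exact 95% Clopper-Pearson interval 31.6 to 55.96%) and highest in 2A with 71.9% (59.2 to 82.4%). These intervals cover counting error only. Both genes spanned nearly the whole scale among cells, Sirpa up to a log2 value of 12.53 and Cd74 up to 13.07.

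Xcr1 was detected in 10, 6, 13 and 12 cells of mice 1A, 1B, 2A and 2B, a mean of 15.9 ± 5.37%. Zbtb46 was detected in 6, 9, 7 and 11 cells, a mean of 12.7 ± 3.90%. Over the cells in which each was detected, the median log2 value was 1.62 for Xcr1 and 2.17 for Zbtb46, and 3.14 for Cd74 and 6.12 for Sirpa. The share of detected Xcr1 was 12.1% in the first sequencing pool and 21.9% in the second, while its mean log2 value over all cells was 0.31 and 0.38. Of the 31-base stretches of Xcr1 transcripts, 3.32% also occur in transcripts of other genes, so single reads of this gene are less certain than those of Sirpa, with 0.0392%.

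At a log2 value of at least 5 the contrast widened. Sirpa was high in 31, 34, 27 and 36 cells of mice 1A, 1B, 2A and 2B, a mean of 49.2 ± 7.17%. Cd74 was high in 14, 12, 16 and 15 cells, a mean of 21.97 ± 3.57%. Xcr1 and Zbtb46 were each high in 1, 2, 1 and 0 cells, a mean of 1.49 ± 1.18% for each gene, and the 0 of 61 cells in mouse 2B allows a share of up to 4.92% with a floor of 3 cells and of up to 5.87% by the exact interval. The order Sirpa, Cd74, then Xcr1 and Zbtb46 held in all 4 mice at this threshold, and Xcr1 and Zbtb46 were equal. Whether the values are scaled by gene length is not stated, so this order is one of shares of cells past a fixed value and not of molecules. By detection, Sirpa stood above Cd74 in all 4 mice, and Xcr1 and Zbtb46 changed places between mice.

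**Figure D1:**
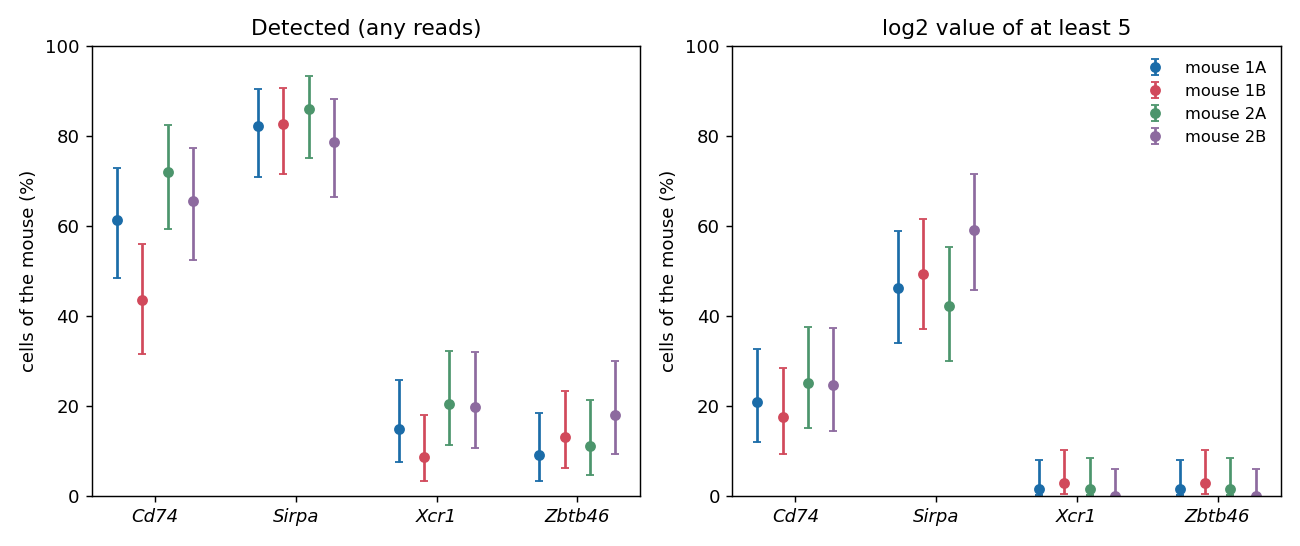
Share of cells of each mouse in which a member was detected (left) or had a log2 value of at least 5 (right), in percent. Points are mice and bars are exact 95% Clopper-Pearson intervals. Sirpa and Cd74 lie well above Xcr1 and Zbtb46 in every mouse, and at a log2 value of at least 5 the rare members have at most 2 cells per mouse.

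Cd74, the invariant chain, was higher in Siglech-high cells. It was high in 19 of 26 Siglech-high cells (10 of 13, 1 of 3, 4 of 6 and 4 of 4 for mice 1A, 1B, 2A, 2B), against 38 of 235 other cells (4 of 54, 11 of 66, 12 of 58 and 11 of 57). The log2 value ran from 0.23 through a median of 9.53 to 13.07 in Siglech-high cells, and from -0.43 through 1.02 to 12.32 in the other cells. Single cells of the groups overlapped, but the mean of Siglech-high cells was above that of the other cells in all 4 mice, with 8.12, 4.16, 6.90 and 9.36 in Siglech-high cells of mice 1A, 1B, 2A and 2B, against 1.73, 2.12, 2.23 and 2.38 in their other cells. The mean within-mouse difference was 5.02 on the log2 scale (SE 0.85, adjusted p = 0.0198, limma on 4 mice, two-sided, Benjamini-Hochberg over 12438 genes). In mouse 1B, with 3 Siglech-high cells, 2 of them had no reads of Cd74 and the third had a log2 value of 11.98.

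Sirpa, the cDC2-associated receptor, was also higher in Siglech-high cells. It was high in 17 of 26 Siglech-high cells (8, 2, 3 and 4 for mice 1A, 1B, 2A, 2B), against 111 of 235 other cells (23, 32, 24 and 32). Its log2 value had a median of 8.35 in Siglech-high cells (0.24 to 12.20), against 4.55 in other cells (-0.50 to 12.53). The mouse means were 6.25, 8.15, 5.62 and 9.58 in Siglech-high cells of 1A, 1B, 2A and 2B, against 3.93, 4.32, 4.30 and 4.40 in their other cells, and again did not overlap. The mean difference was 3.16 on the log2 scale (SE 0.68, adjusted p = 0.0321, limma on 4 mice).

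Xcr1 and Zbtb46 passed in neither direction. Xcr1 was high in 0 of 26 Siglech-high cells, which allows a share of up to 11.5% with a floor of 3 cells and of up to 13.2% by the exact interval, against 4 of 235 other cells. Its highest log2 value was 2.15 in a Siglech-high cell and 6.85 in another cell. Its mean difference was 0.04 on the log2 scale (SE 0.31, adjusted p = 0.936, limma; higher in 2 of 4 mice). Zbtb46 was high in 1 of 26 Siglech-high cells, against 3 of 235 other cells, with a mean difference of 0.13 (SE 0.33, adjusted p = 0.803, limma; higher in 2 of 4 mice).

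In the same fit 335 of 12438 genes were higher in Siglech-high cells (2.69%) and 2014 were lower (16.2%), and the median over all genes was a difference of -0.63, in cells with fewer detected genes. Of the 4 members, 2 fell among the higher 2.69%. Calls depended most on mouse 1A, which holds 13 of the 26 cells. Without it no gene was called by limma (0 of 12474, with 3296 at an unadjusted p under 0.05), and Cd74 then differed by 4.56 (adjusted p = 0.0937) and Sirpa by 3.44 (adjusted p = 0.106). Without mouse 1B, 2A or 2B, 1346, 1290 and 734 genes were called. Cd74 was among them only without 1B, and Sirpa only without 2A. After regression on the number of detected genes, with all 4 mice, no gene was called (0, with 2045 at an unadjusted p under 0.05). Cd74 then differed by 4.25 (adjusted p = 0.148) and Sirpa by 3.52 (adjusted p = 0.1497). Sirpa also lost its call when the sets replaced mice as units, at 2.54 (adjusted p = 0.172).

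**Figure D2:**
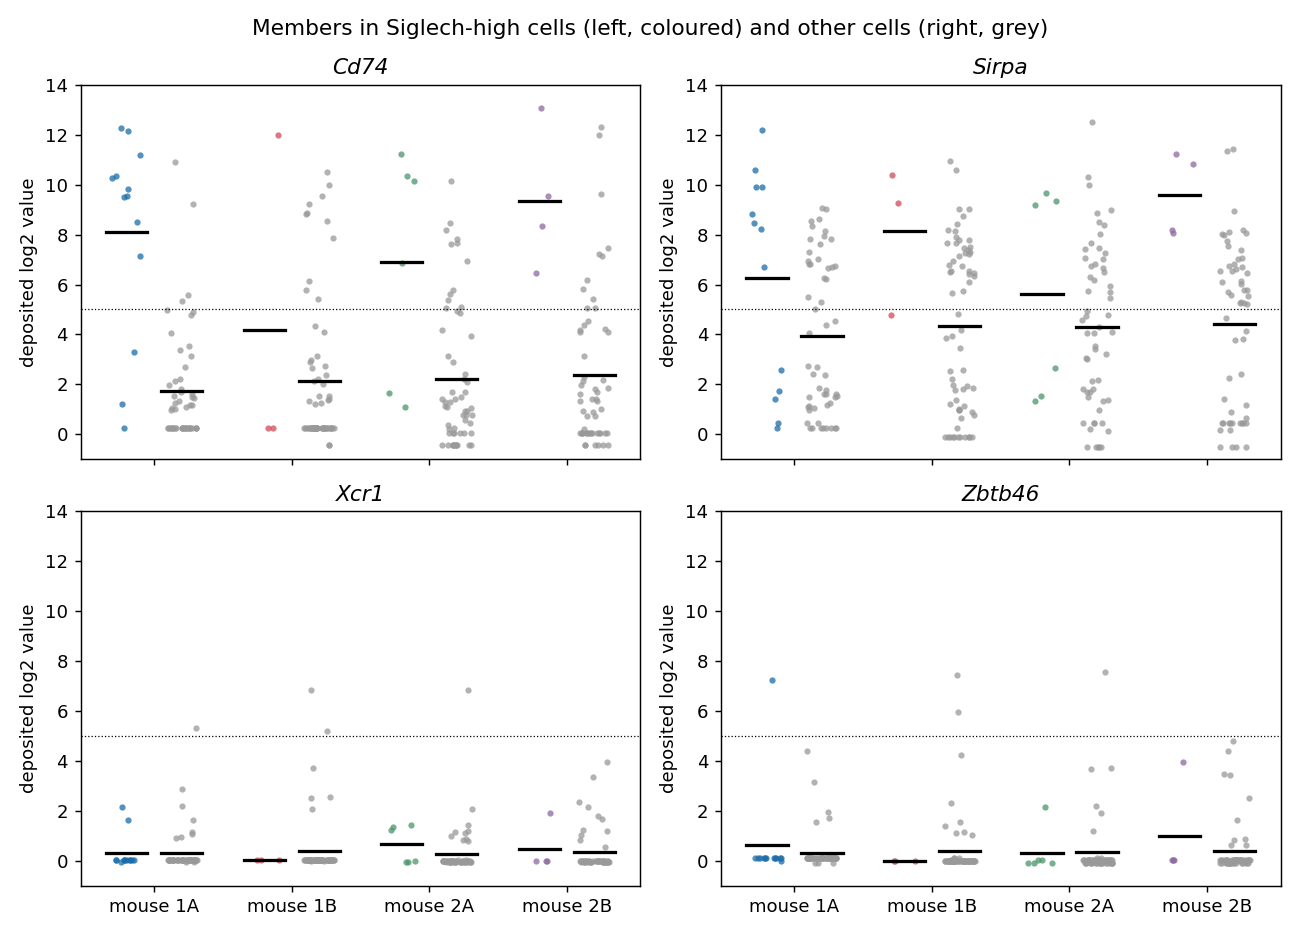
Deposited log2 value of each member in every cell, by mouse, with Siglech-high cells left (coloured) and other cells right (grey). Black bars are means and the dotted line is the log2 value of 5. The means of Cd74 and Sirpa are higher in the Siglech-high cells of all 4 mice, and Xcr1 and Zbtb46 are near the level at no reads in both groups apart from single cells.

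The Siglech-high cells carried the genes of plasmacytoid dendritic cells. Siglech itself taken out, 13 genes of that list were detected in at least 10% of the other cells as well, and all 13 rose, among them Ccr9, a chemokine receptor, by 7.88 (SE 0.44, adjusted p = 0.0110) and Tcf4, a transcription factor required by plasmacytoid dendritic cells, by 4.58 (SE 0.42, adjusted p = 0.0110). Tlr9, a nucleic acid sensor, was detected in 15 of 26 Siglech-high cells against 22 of 235 other cells and entered the test only through the Siglech-high cells, so its difference of 3.93 is given as a value. Over all genes of this fit 2.69% rose and 16.2% fell, and the median difference was -0.63 on the log2 scale. The 5 genes with the largest rise were Pld4 (8.88), Ctsh (8.33), Irf8 (8.25), Ccr9 and Ly6d (7.66), and the largest falls were those of Mpo (-5.69), Serpinb1a (-5.66), Nkg7 (-5.51), Ifitm2 (-5.28) and Adgrg3 (-5.27), each in all 4 mice. Mpo encodes the myeloperoxidase of granule-forming myeloid precursors.

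Of the genes shared by conventional dendritic cells, 2 of 9 tested rose, 1 fell and 6 passed in neither direction. Over all genes of the same fit 2.69% rose and 16.2% fell, and the counts of this and the following lists stand beside these shares. Irf8, a transcription factor of both cDC1 and plasmacytoid cells, was the one named above, and Itgax, which encodes the integrin CD11c, rose by 6.41 (SE 0.63, adjusted p = 0.0110). Dpp4, also known as CD26, fell by 2.76 (SE 0.35, adjusted p = 0.0130). The reference holds 190 cells high for Kit but not for Siglech, Adgre1, Il2rb or Mcpt8, and Dpp4 was high in 151 of them. Flt3, the receptor of the dendritic cell growth factor Flt3 ligand, differed by 2.35 (adjusted p = 0.0572) and Irf4, which reached the detection minimum only through the Siglech-high cells, by 2.98 (adjusted p = 0.0970), and neither passed.

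Of the 8 cDC1 genes detected in at least 10% of the other cells as well, 2 fell and 6 passed in neither direction. Tlr3, a sensor of double-stranded RNA, was detected in 19 of 26 Siglech-high cells against 9 of 235 other cells. It was tested only because of the Siglech-high cells, and its difference of 1.86 on the log2 scale is given as a value. Wdfy4, needed for cross-presentation, fell by 1.57 (adjusted p = 0.0296), and Cd24a fell by 4.60 (adjusted p = 0.0110). In the same 190 Kit-high reference cells, Wdfy4 was high in 112 and Cd24a in 160. Cadm1, a cell adhesion molecule, was high in 6 of 26 Siglech-high cells and differed by 1.95 (adjusted p = 0.0507), just outside the threshold. Cd8a, also high in 6 of 26, differed by 2.35 (adjusted p = 0.0595) and Gcsam by -1.02 (adjusted p = 0.0654), and neither passed. Batf3, a transcription factor of cDC1 development, was high in 0 of 26 Siglech-high cells, which allows a share of up to 11.5% with a floor of 3 cells. It was rare elsewhere too, high in 2 Adgre1-high cells and 1 Il2rb-high cell only, and its difference was not tested.

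Of the 9 tested cDC2 genes 3 rose, 1 fell and 5 passed in neither direction. Sirpa rose with Clec10a, a C-type lectin, by 3.93 (SE 0.51, adjusted p = 0.0137), and with Cd7, which lymphoid cells also make, by 6.14 (SE 0.29, adjusted p = 0.0110). Esam, an adhesion molecule of one cDC2 subset, fell by 1.79 (adjusted p = 0.0413). Of the 7 tested genes of mature dendritic cells 0 rose and 1 fell, Fscn1 by 2.16 (adjusted p = 0.0198). Over all genes of the fit 2.69% rose and 16.2% fell. The macrophage list gave 1 rise in 10 genes, Cd68, a lysosomal protein. Its defining genes passed in neither direction, with Csf1r at -0.54 and Adgre1 at 0.17.

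Cd74 rose with processing genes of the MHC class II pathway, while the classical class II chains that it chaperones did not pass the test. Of 15 tested genes of the MHC class II pathway 6 rose and 0 fell: besides Cd74, these were H2-DMa and H2-DMb1, which edit the bound peptides, and Ctss, Ctsl and Lgmn, lysosomal proteases. Ctss, which cleaves the invariant chain, rose by 7.45 (SE 0.47, adjusted p = 0.0110) and was high in 24 of 26 Siglech-high cells. H2-DMa rose by 4.21 (SE 0.63, adjusted p = 0.0157) and was high in 21 of 26. The classical chains H2-Aa, H2-Ab1 and H2-Eb1 differed by 1.21 (adjusted p = 0.183), 0.79 (adjusted p = 0.190) and 1.43 (adjusted p = 0.203), and each was high in 6 of 26 Siglech-high cells. Of the 19 Siglech-high cells high for Cd74, 12 were high for none of the 3 chains and 4 for all 3. Whether Cd74 differed more than the chains was not tested.

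**Figure D3:**
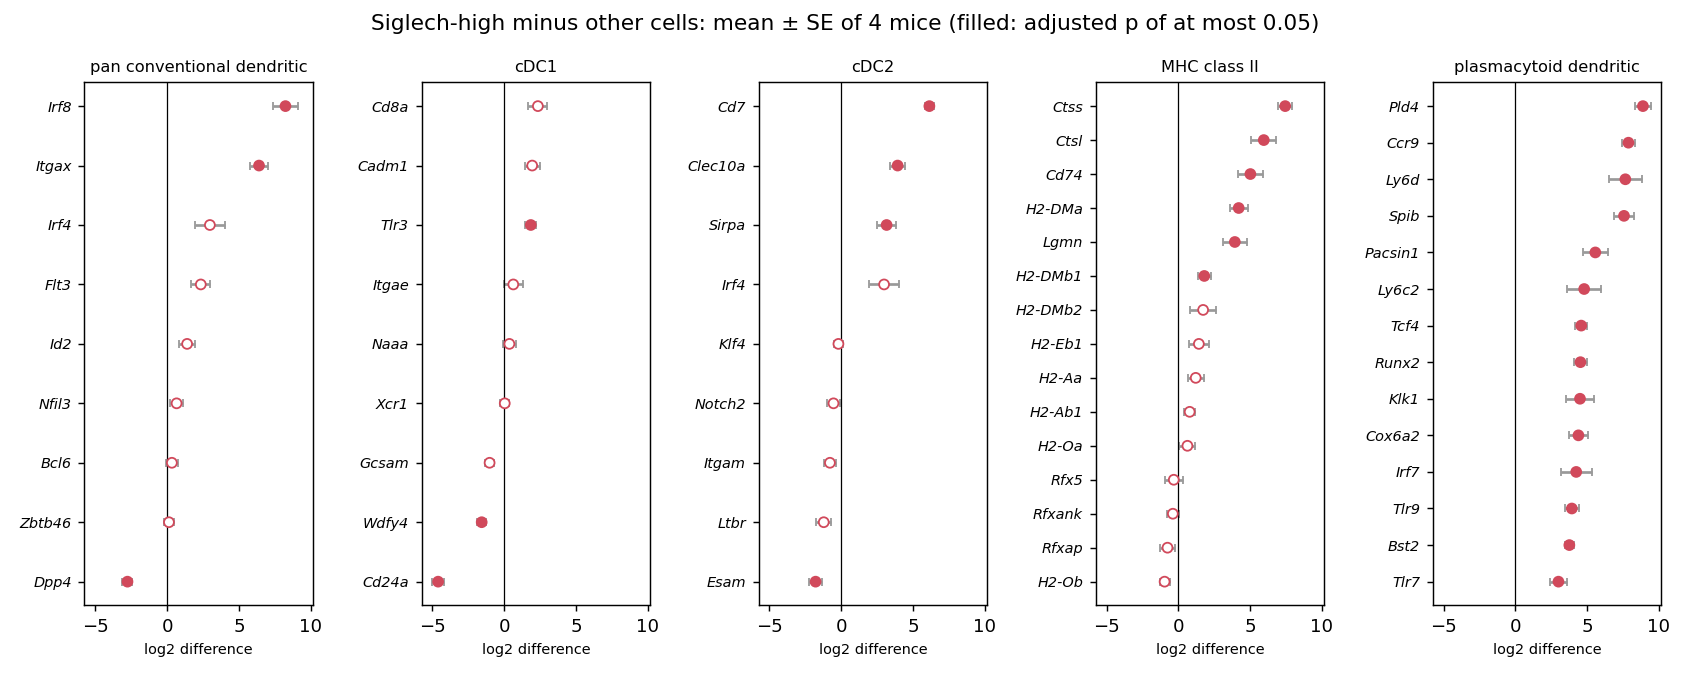
Mean log2 difference, Siglech-high minus other cells, for the tested genes of 5 lists, with bars for the SE over 4 mice and filled points for an adjusted p of at most 0.05. All 14 plasmacytoid genes are filled, of which Tlr9, like Tlr3 and Irf4, reached the detection minimum only through the Siglech-high cells, whereas Xcr1 and Zbtb46 lie near 0 and the classical class II chains H2-Aa, H2-Ab1 and H2-Eb1 are open.

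Outside the Siglech-high cells, Cd74 was high in 38 cells, and these were of several kinds. Each cell was given to the first class it met in the order Siglech, Adgre1 (a macrophage receptor), Il2rb (an interleukin receptor chain of NK and innate lymphoid cells), Mcpt8 (a basophil protease), Kit and the rest, an order chosen after the data were seen. Of the 11 Mcpt8-high cells, 7 were also Adgre1-high and so went to the Adgre1-high class. The 13 cells of that class were high for a median of 5 of 7 mast and basophil markers and 3 of 12 macrophage markers. Cd74 was then high in 19 of 26 Siglech-high cells (73.1%, exact 95% interval 52.2 to 88.4%), 5 of 13 Adgre1-high cells, 6 of 23 Il2rb-high cells, 0 of 3 Mcpt8-high cells, 23 of 190 Kit-high cells (12.1%, 7.83 to 17.6%) and 4 of the remaining 6 cells. Siglech-high cells thus made up 33.3% of the 57 Cd74-high cells, and Kit-high cells 40.4%.

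The cells with the full classical class II set included cells with markers of other lineages. In all, 11 cells were high for H2-Aa, H2-Ab1 and H2-Eb1 together, and all 11 were high for Cd74 (log2 value 7.67 to 13.07). Of these 11, 4 were Siglech-high, and 5 were high for at least 4 of the 7 thymic stroma markers in the matrix, which include the thymic epithelial genes Epcam, Krt8, Foxn1 and Psmb11. A further 1 was high for at least 6 of 8 B cell markers. The 5 stroma-marked cells were the only cells with at least 4 such markers, and their Cd74 values ran from 9.63 to 12.32, with Sirpa high in 3 of them. A stroma-marked cell of mouse 1A was also high for 8 of 10 NK and innate lymphoid markers, and another of mouse 2A for Kit and Cd34. Whether any of these cells was a doublet was not tested. These marker minimums were chosen after their values were seen. Of 3 cells with at least 6 B cell markers, 2 were high for Cd74 and 0 for Sirpa. Xcr1 and Zbtb46 were high in 0 of the 11 class II cells, 0 of the 5 stroma-marked cells and 0 of the 3 B-marked cells. Each gene was high in only 4 of all 261 cells (1.53%), so groups this small cannot show whether they lack it.

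Kit-high cells had lower Cd74 than the cells without high Kit. The mouse means were 1.504, 1.67, 2.38 and 1.95 in Kit-high cells of 1A, 1B, 2A and 2B, against 7.26, 4.33, 3.61 and 8.70 in the other cells, and did not overlap. The mean difference was -4.10 on the log2 scale (SE 0.91, adjusted p = 0.0174, limma on 4 mice). In this fit 335 genes were lower (2.69%) and 3666 were higher (29.5%), and the reference cells hold 22 of the 26 Siglech-high cells, so it shares cells with the comparison above. Sirpa differed by -0.71 (adjusted p = 0.476), Zbtb46 by -0.60 (adjusted p = 0.138) and Xcr1 by -0.21 (adjusted p = 0.598), and none passed. Il2ra marks a later step of T-lineage progression, and in the Il2ra-high split Cd74 differed by -1.72 (adjusted p = 0.0733, lower in 4 of 4 mice), where 0.105% of genes were higher and 0.0402% lower.

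Sirpa followed another pattern, spread over low and high values in Kit-high cells and low in Il2rb-high cells. It was high in 95 of 190 cells given to the Kit-high class (median log2 value 4.98), in 10 of 13 Adgre1-high cells, and in 2 of 23 Il2rb-high cells. These 95 cells were 74.2% of all Sirpa-high cells, close to the share of the Kit-high class among all cells (190 of 261). Taking every Adgre1-high cell, 15 in all, Sirpa means were 6.74, 10.78, 6.74 and 9.95 for mice 1A, 1B, 2A, 2B, against 4.23, 4.30, 4.27 and 4.27 in the other cells. That difference of 4.28 did not pass (SE 0.85, adjusted p = 0.0776, limma on 4 mice), in a fit in which 0.209% of genes were higher and 0.764% lower. Of the 85 Csf1r-high cells, split by the macrophage growth factor receptor, 73 were also Kit-high and 10 Adgre1-high. Sirpa in Csf1r-high cells differed by 1.10 (adjusted p = 0.324, higher in 4 of 4 mice). In that fit 0% of genes were called in either direction by limma, with 1400 at an unadjusted p under 0.05.

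Set directly against Csf1r-high cells, leaving out cells high for both, no member of the 4 passed in Siglech-high cells. The Csf1r-high cells were mostly Kit-high as well. Cd74 averaged 8.12, 4.16, 5.22 and 10.71 in Siglech-high cells of mice 1A, 1B, 2A and 2B, against 1.37, 2.50, 4.02 and 2.43 in their Csf1r-high cells, a difference of 4.47 on the log2 scale (SE 1.34, adjusted p = 0.0708, limma on 4 mice; higher in 4 of 4). Sirpa averaged 6.25, 8.15, 5.80 and 9.71, against 4.53, 5.23, 6.30 and 4.69 in Csf1r-high cells, a difference of 2.29 (SE 0.90, adjusted p = 0.135, limma), and was lower in mouse 2A. Xcr1 differed by 0.39 (adjusted p = 0.498) and Zbtb46 by -0.0086 (adjusted p = 0.990). In this fit 2.44% of 12435 genes were higher and 16.1% were lower.

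In Il2rb-high cells Sirpa fell in each of the 3 mice with at least 2 such cells. Its means were 2.22, 1.37 and 0.92 in Il2rb-high cells of mice 1A, 1B and 2A, against 4.63, 4.96 and 5.00 in their other cells, a difference of -3.36 on the log2 scale (SE 0.44, adjusted p = 0.0295, limma on 3 mice). In the same fit 714 of 12401 genes were lower (5.76%) and 163 higher (1.31%). The single Il2rb-high cell of mouse 2B had a Sirpa value of 6.54. Of the Il2rb-high cells 22 of 26 lay in the first 8 wells of the sets, and without those wells too few cells remained for a fit, so class and well cannot be told apart here.

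**Figure D4:**
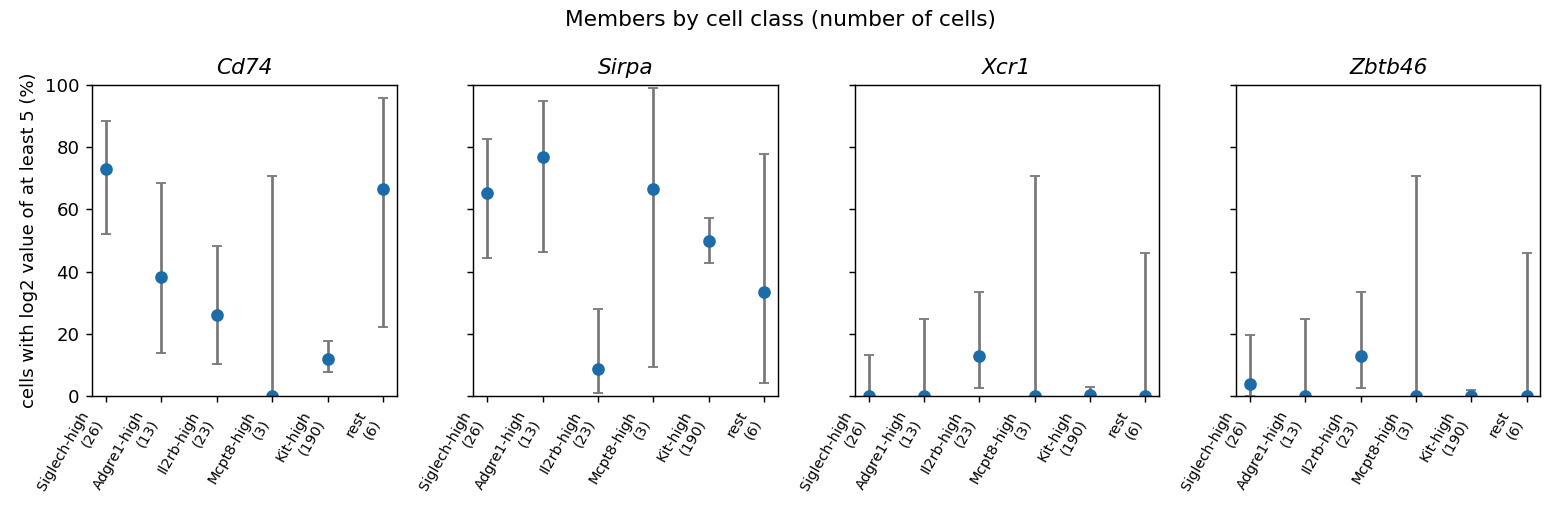
Share of cells of each class with a log2 value of at least 5 for each member, in percent, with exact 95% Clopper-Pearson intervals and the number of cells in brackets. Cd74 is highest in the Siglech-high class and the 6 remaining cells, Sirpa is lowest in the Il2rb-high class, and Xcr1 and Zbtb46 exceed 10% only in the Il2rb-high class, with 3 cells each.

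The few cells high for Xcr1 or Zbtb46 were mostly Il2rb-high. All 4 Zbtb46-high cells were Il2rb-high, with Zbtb46 at log2 values of 7.56, 7.44, 7.24 and 5.97, and 1 of them was Siglech-high as well. All 4 lay in the first 8 wells of their sets, against 28 of the other 257 cells. Of the 4 Xcr1-high cells, at 6.85, 6.85, 5.31 and 5.22, 3 were Il2rb-high, and 2 lay in the first 8 wells. The remaining Xcr1-high cell, from mouse 1B, was Kit-high, with Sirpa at 6.55 and Cd74 at 0.25. No Zbtb46-high cell was also Sirpa-high, and 1 of the 4 was Cd74-high, at 7.88.

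Over the Il2rb-high class as a whole neither gene passed. Zbtb46 averaged 1.27, 1.77 and 0.83 in Il2rb-high cells of mice 1A, 1B and 2A, against 0.28, 0.18 and 0.25 in the other cells. The difference was 1.05 (SE 0.36, adjusted p = 0.128, limma on 3 mice). Xcr1 averaged 0.92, 0.79 and 0.96, against 0.26, 0.30 and 0.21 in the other cells, a difference of 0.63 (SE 0.31, adjusted p = 0.246). Both were higher in 3 of 3 mice, each on 3 or 4 high cells, and Zbtb46 reached the detection minimum in these mice only through the Il2rb-high cells. In this class all 5 genes of the NK and innate lymphoid list that were detected in at least 10% of the other cells as well rose. Ncr1, Tbx21 and Xcl1 entered the test only through the Il2rb-high cells. The 5 largest rises of this fit were Klrk1 (8.23), Klrc1 (8.05), Ctsw (7.79), Ccr8 (7.61) and Cd3g (7.50). Cd3g encodes a CD3 chain of T cells, and which cell types this class held was not tested. Of genes on the conventional and mature dendritic lists 3 rose and 5 fell. The shared, cDC1, cDC2 and mature lists had 9, 9, 8 and 7 tested genes, with Irf4 on both the shared and the cDC2 list. Over all genes of this fit 1.31% rose and 5.76% fell. Id2, Itgae and Cd7 rose by 6.86 (adjusted p = 0.0159), 5.47 (adjusted p = 0.0247) and 4.94 (adjusted p = 0.0199). Besides Sirpa, Flt3 fell by 2.97 (adjusted p = 0.0271), Wdfy4 by 4.19 (adjusted p = 0.0167), Cd24a by 5.08 (adjusted p = 0.0202) and Fscn1 by 3.15 (adjusted p = 0.0243). Id2, Itgae and Cd7 are also made by NK and innate lymphoid cells.

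Cells high for more than 1 of the 4 genes were mostly high for Cd74 and Sirpa, the 2 widespread members. Of the 128 Sirpa-high cells 25.8% were Cd74-high, beside 21.8% of all cells. Xcr1 and Zbtb46 were each high in only 4 of 261 cells (1.53%), so their low overlap counts say little about co-expression. Of 261 cells, 33 were high for Cd74 and Sirpa (8, 6, 9 and 10 for mice 1A, 1B, 2A, 2B), 2 for Cd74 and Xcr1, 1 for Cd74 and Zbtb46, and 1 for Sirpa and Xcr1. None (0) was high for Xcr1 and Zbtb46 together, and 105 were high for none of the 4. Of the 33 cells, 14 were Siglech-high, 5 Adgre1-high and 12 Kit-high. Within the Siglech-high class 14 of 26 cells were high for both, 5 for Cd74 alone, 3 for Sirpa alone and 4 for neither. Within the Kit-high class 12 of 190 were high for both, 11 for Cd74 alone, 83 for Sirpa alone and 84 for neither.

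**Figure D5:**
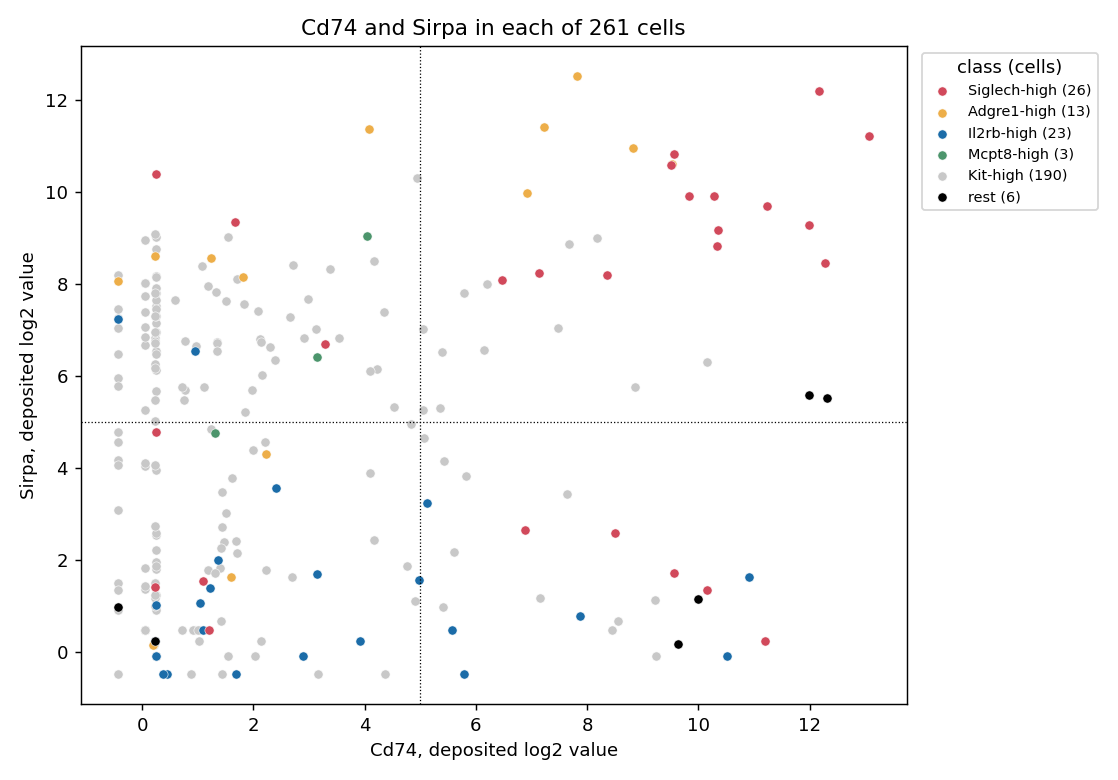
Deposited log2 value of Cd74 (x axis) and Sirpa (y axis) in each of the 261 cells, coloured by class, with dotted lines at 5. Of the 33 cells in the upper right, 14 are Siglech-high and 12 are Kit-high, and no Il2rb-high cell is among them.

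Correlations inside mice were weak for all 6 pairs and are given as a description. Cd74 and Sirpa had Spearman coefficients of 0.26, 0.03, 0.18 and 0.19 for mice 1A, 1B, 2A, 2B, a mean of 0.16 ± 0.10 (SD), and both were detected in 132 cells, 50.9% of cells, where the product of the 2 shares is 49.9%. Without the Siglech-high cells the mean was 0.06. The other 5 pairs had means between -0.06 and 0.18. Xcr1 with Zbtb46 was 0.18 ± 0.32 and ran from -0.14 in mouse 1A to 0.62 in 2A, with both detected in 6 cells over all mice and in 2 cells of mouse 2A. With 1 level at no reads in all sets this pair had a mean of 0.027, by Pearson's coefficient -0.037 and without mouse 2A 0.037, while Cd74 with Sirpa had 0.18 with 1 level at no reads and 0.22 by Pearson's coefficient. Cells of a mouse share depth and correction set, and cells without reads differ in rank between sets.

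The genes most like Cd74 across cells, by mean Spearman coefficient inside the 4 mice among 12438 genes, were Pld4 (0.42), H2-Aa (0.41), Ctss (0.39), Ppfia4 (0.37) and Carmil1 (0.37). Of the 5, 4 stayed among the first 5 when each gene was set to 1 level at no reads in all sets, and Ppfia4 moved to rank 27. For Sirpa they were I830077J02Rik (0.35), Ftl1 (0.35), the ferritin light chain, Mfsd12 (0.35), Hexa (0.34), a lysosomal hexosaminidase subunit, and Pip4k2a (0.33), of which 3 stayed. For Xcr1 (Myo1d 0.48, Zbtb33 0.48, Lekr1 0.46, Nt5e 0.46 and Epcam 0.45) and Zbtb46 (Pdzk1 0.50, Icosl 0.43, Smpd5 0.42, Fbxl17 0.40 and Gm7816 0.39) 0 of 5 stayed, and the highest coefficient on the common level was 0.28 for Xcr1 and 0.27 for Zbtb46, so no gene can be named as like these 2 rare members.

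The binding partners of the members were also read in the same cells. Cd47, the ligand of Sirpa, averaged 9.03 in the cells that were not Siglech-high, and differed by 0.86 (adjusted p = 0.121) in Siglech-high cells. Sirpa recruits the phosphatases Ptpn6 and Ptpn11. Of these, Ptpn6 rose by 1.62 (SE 0.36, adjusted p = 0.0350, limma) and Ptpn11 fell by 3.15 (SE 0.46, adjusted p = 0.0156, limma). Mif, a cytokine that binds Cd74, fell by 2.03 (adjusted p = 0.0224), while Cd44, its co-receptor, differed by 0.32 (adjusted p = 0.746). Cxcr2, a chemokine receptor, fell by 1.97 (adjusted p = 0.0351, limma), and Cxcr4 and Sppl2a passed in neither direction. Of the 9 tested partner genes 1 rose and 3 fell, where over all genes of the fit 2.69% rose and 16.2% fell. Xcl1, the ligand of Xcr1, differed by 0.13 (adjusted p = 0.857) and is also on the NK and innate lymphoid list.

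By position on GRCm38, Cd74 lies on chromosome 18 (60803848 to 60812652, plus strand), Xcr1 on chromosome 9 (123852315 to 123862029, minus strand), and Sirpa (129592835 to 129632228, plus strand) and Zbtb46 (181387762 to 181459426, minus strand) both on chromosome 2. The values are per gene and do not separate exons or isoforms.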

How the data were processed

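The authors deposited 1 matrix of normalized, batch-corrected log2 values for 261 single cells, per the file's own values and the labels. Per the submitters' processing notes, Salmon and GRCm38 were used (no version given); how depth was normalized, which correction was applied and whether reads were stranded is not given in the sources used. The design allowed for TPM or counts, and the log2 values were used as they are. Ensembl IDs were matched to GENCODE vM21 symbols (13578 matched, 154 without a symbol).

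Cells fall into 4 sets by exact shared values (at least 14.2% of values within a set, 0% between sets). Within a set, a gene's repeated lowest value is its level at no reads, and a value differing by more than 1e-06 is a detection; 12054 genes have that level in all sets. Classes are cells with a log2 value of at least 5 for 1 gene. Per mouse, the class mean minus the mean of the other cells was taken for genes detected in at least 10% of cells, and the differences were tested with limma 3.58.1 in R 4.3.3 (intercept only, moderated, two-sided, Benjamini-Hochberg at 0.05), in mice with at least 2 cells on each side and with at least 3 mice. There were 7 such comparisons, each adjusted by itself. Moderation shrinks each variance toward a common value. Cells were not replicates. The procedure was tested on simulated data. The labels describe the cells as sorted singly, and doublets or carried-over RNA were not tested for.

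The members and lists were chosen with earlier results of these data known. Besides the members, the text names genes of the fixed lists, the class genes and the 5 genes most like each member. It also names the 5 called genes with the largest difference in each direction for Siglech-high cells, and the 5 with the largest rise for Il2rb-high cells. The Adgre1-high class and the exclusive classes were added after seeing the data. Alternatives were other thresholds, aligned levels, sets as units, leaving out mice, wells or cells, weighting, regression on detected genes and no filter.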

Additional observations from a re-analysis of the deposited data

How the results depend on the processing

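Cd74 kept a higher value in Siglech-high cells under all 15 alternatives, with 9 past the threshold. It was 4.37 to 6.01 with 1 mouse left out in turn and past the threshold only without mouse 1B, 4.25 regressed on detected genes, 1.44 with every cell in which Siglech was detected, and 4.58 without Siglech-high cells that were also Adgre1-, Il2rb- or Kit-high (3 mice; chosen after seeing the data). Sirpa stayed higher under all 15, with 8 past the threshold: 2.49 to 3.78 with 1 mouse left out and past it only without 2A, 2.78 at a Siglech threshold of 4, 2.54 with sets as units, 3.52 regressed and 1.05 with every detected cell. Adjusted p over the alternatives ran from 0.00850 to 0.709 for Cd74 and from 0.0162 to 0.657 for Sirpa. Xcr1 and Zbtb46 passed under no alternative and changed sign around 0. Xcr1 was -0.021 at a threshold of 4, -0.00037 with sets as units and -0.032 with every detected cell. Zbtb46 was -0.28 at a threshold of 7, -0.019 regressed, -0.088 with every detected cell and -0.078 without the cells high for a second class. With 1 mouse left out Xcr1 ran from -0.071 to 0.17 and Zbtb46 from -0.029 to 0.31. The count of 2349 called genes became 1391 at a threshold of 4, 1098 with sets as units, 0 regressed (2045 at an unadjusted p under 0.05) and 0 with every detected cell (858), and 0 to 1346 with 1 mouse left out, the 0 without mouse 1A. The cause of these changes was not tested.

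Detection depends on its definition. At a linear value of at least 10 the shares were 28.6% for Cd74, 2.26% for Xcr1, 4.64% for Zbtb46 and 58.03% for Sirpa, at a log2 value of at least 5 they were 21.97%, 1.49%, 1.49% and 49.2%, and Xcr1 was detected in 22.7% of cells per mouse of the second pool. The mean coefficient of Cd74 with Sirpa was 0.058 without Siglech-high cells, and that of Zbtb46 with Sirpa 0.035 without the first 8 wells. In the other splits, Cd74 in Il2rb-high cells turned to -0.0029 regressed, and Zbtb46 in Csf1r-high cells to 0.18 at a threshold of 7, and Zbtb46 in Siglech-high against Csf1r-high cells to 0.0037 at a threshold of 4; all 3 were uncalled. Sirpa in Il2rb-high cells lost its call at a threshold of 4 (-3.01, adjusted p = 0.0522, limma) and with no filter on detection (-3.36, adjusted p = 0.0521). Il2rb-high fits without mouse 1A, 1B or 2A, and without the first 8 wells, were not run because fewer than 3 mice remained.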
